A study of Mus musculus with 64 samples.

Results

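Oc90 and Sparcl1 encode proteins of otoconia, the calcium carbonate crystals that load the gravity-sensing organs of the inner ear. Every probe set that the platform annotation pairs with either symbol alone was taken, which gave 2 genes out of 12393 and 2 probe sets out of 22626: 1452403_a_at for Oc90 and 1416114_at for Sparcl1. Their levels were followed in all 32 groups of the series, which holds 64 Affymetrix arrays of microdissected tissue from CBA/J mouse embryos, with no transgene or treatment in any group. The inner ear groups were the otic placode at E9, the otic vesicle at E9.5 and E10, the cochlea at each half-day of E10.5 to E15, the vestibular organ at E10.5 to E12, and the saccule and the utricle with its 3 ampullae at E12.5 to E15. The 3 reference groups, called non-inner ear tissue, were dissected from around the ear at E9, at E9.5 to E10.5 (pooled) and at E11 to E15 (pooled).

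Each group had 2 arrays from pools of different litters, with 6 to 17 tissues per pool where the labels give a number. The p-values rest on the spread between such litter pools. That spread was estimated for each gene over all groups together, not from the compared pools alone. At E10.5 to E12 the vestibular organ was taken without the endolymphatic duct, and tissue was freed with dispase for 8 to 10 minutes up to E10.5 and for 20 to 25 minutes from E11. In bulk tissue, fewer cells of a type and less RNA per cell cannot be told apart.

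Otoconia sit on the maculae of the utricle and the saccule. They are made of calcite grown on a protein matrix, whose main protein in mammals is otoconin-90, the product of Oc90. Otoconin-90 is a secreted protein with domains related to secretory phospholipase A2, which do not act as an enzyme, and mice without it form few, abnormally large crystals. Sparcl1, also called SC1 or hevin, is a secreted calcium- and collagen-binding glycoprotein related to SPARC. It is widely made by astrocytes and by blood vessel cells, and it is found in the otoconia of mice that lack Oc90. The mammalian cochlea has a tectorial membrane, and the ampullae a cupula, with no otoconia.

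The deposited signals are linear MAS5 intensities with a floor of exactly 10, and values in single arrays are given on that scale. A signal of 1 probe set was never set against that of another. Differences and trends are on the scale log2(signal + 16) after quantile normalization and come from 1 limma fit to the 64 arrays, with their standard error (SE). A gene was called when its Benjamini-Hochberg adjusted p over the 9352 tested genes was below 0.05 and its difference at least 1 log2, and only called differences are described as a rise or a fall. The deposited arrays differed 1.58-fold in their trimmed mean signal, and 5.43 to 12.04% of the values of an array were at the floor. On the normalized log2 scale replicate arrays correlated at 0.947 to 0.991 over the 9352 tested genes. The E11 inner ear arrays had more values at the floor (9.81 to 12.04%) than any other array (at most 8.63%). Epcam, an epithelial surface protein, lay at 67.4 to 364 in the inner ear arrays and at 10 to 12.8 in non-inner ear tissue. Otx2, a transcription factor of the ventral otocyst, was at the floor of 10 in 11 of 12 utricle arrays (the other at 30.4) and between 296 and 632 in the saccule, while Gata3 reached 725 and 819 in the cochlea at E15.

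Oc90 appeared between E9 and E10 and then became one of the brightest signals on the array. In the otic placode at E9 its signals were 10.8 and 25.5, against 10 and 19 in non-inner ear tissue of the same age. These overlapped, at a difference of 0.0066 log2 (SE 0.23, limma adjusted p = 0.996). In the otic vesicle Oc90 had 295 and 133 at E9.5 and 1763 and 1356 at E10, whereas both arrays of non-inner ear tissue of E9.5 to E10.5 were at the floor. All 4 vesicle arrays lay above all placode and non-inner ear arrays of these ages. Set against that floor, the level was at least 17.4-fold higher in the vesicle at E9.5 and at least 128-fold higher at E10.

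The limma difference of the vesicle over non-inner ear tissue at E9.5 to E10 was 4.26 log2 for Oc90 (SE 0.20, adjusted p = 8.52e-20), and Oc90 and Sparcl1 were both called, as were 8.51% of all tested genes. Because both arrays of non-inner ear tissue were at the floor, the size of that difference depends on the pseudocount: it was 5.43 log2 with a pseudocount of 1 and 2.95 log2 with one of 64, and was called with both. From the placode to E9.5 the difference was 2.61 log2 (SE 0.23, adjusted p = 3.21e-10, and 1.61 to 3.47 with those 2 pseudocounts), with 1 of the 2 genes called and 0.738% of all tested genes. From E9.5 to E10 Oc90 gained a further 2.76 log2 (SE 0.23, adjusted p = 6.27e-11). Both genes were called in that half-day step, in which 2.01% of all tested genes were. The 2 vesicle arrays at E9.5 were the most uneven pair for Oc90, with an SD of 0.84 log2 against a median SD of 0.09 over the groups.

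**Figure D1:**
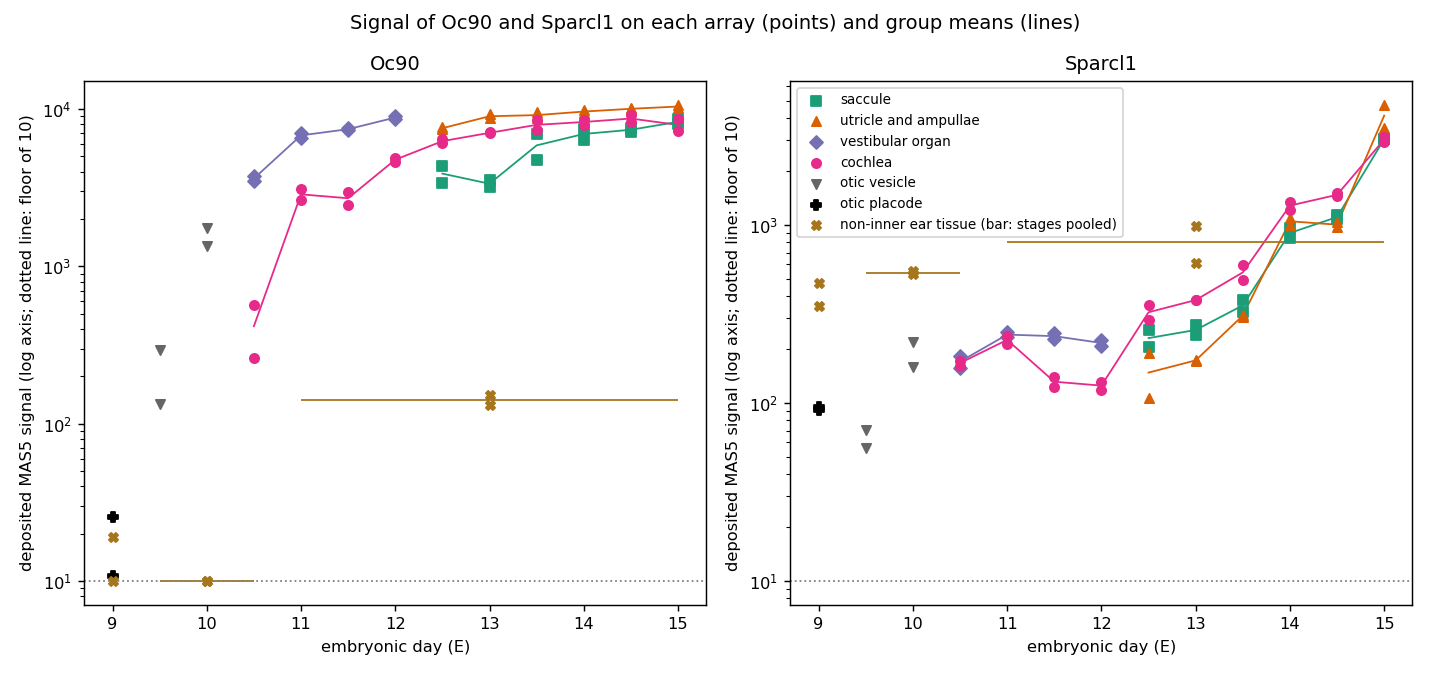
Deposited MAS5 signal (log axis) of Oc90 (left) and Sparcl1 (right) against embryonic day; each point is 1 array, lines join group means of 2 arrays, and horizontal bars span the stages pooled in non-inner ear tissue. Oc90 climbs from 10.8 and 25.5 in the placode at E9 to between 7993 and 10648 in the utricle and saccule at E15, while Sparcl1 stays below 400 in every inner ear group until E13 and reaches 2933 to 4730.1 at E15.

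When the vesicle was first dissected into its parts, at E10.5, Oc90 was uneven between them. The vestibular organ had 3754 and 3489.8, against 572 and 261 in the cochlea of the same stage. The 2 vestibular arrays lay far above the 2 cochlear arrays, by 2.79 log2 (SE 0.23, limma adjusted p = 1.31e-10), with 1 of the 2 genes called and 2.48% of all tested genes. This was the fourth largest absolute difference of any gene in that comparison.

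Set against the whole vesicle of E10, the vestibular organ at E10.5 was 1.30 log2 higher (SE 0.23, limma adjusted p = 0.00269), with Oc90 called alone of the 2 genes, in a comparison in which 0.192% of all genes were. Without the first vestibular array the adjusted p was 0.0981. The cochlea at E10.5 was 1.49 log2 lower than the vesicle of E10 (SE 0.23, adjusted p = 3.11e-05), again with Oc90 called alone and 2.33% of all genes called. Without the second cochlear array that difference was -0.98 log2 (adjusted p = 0.0235), under the 1 log2 limit. The calls between single stages from E9 to E10.5 also rest on a spread estimated from all 64 arrays. With only the 4 arrays compared, limma gave Oc90 adjusted p-values of 0.629 (E9.5 against the placode), 0.378 (E10 against E9.5), 0.352 (cochlea against vesicle), 0.307 (vestibular organ against vesicle) and 0.104 (vestibular organ against cochlea).

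Between E11 and E12 the arrays of the vestibular organ stayed above those of the cochlea. Oc90 had 7074 and 6544 at E11, 7598 and 7314 at E11.5, and 8674 and 9010.4 at E12. The cochlea had 2659 and 3083 at E11, 2954 and 2471 at E11.5, and 4626 and 4916 at E12. At each of the 4 stages from E10.5 to E12 both vestibular arrays lay above both cochlear arrays, by 1.85- to 8.70-fold in mean deposited signal. On the normalized scale these differences were 0.45 to 2.79 log2.

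Averaged over E11 to E12, the vestibular organ minus the cochlea was 0.82 log2 for Oc90 (SE 0.13, limma adjusted p = 1.81e-05), under the limit of 1 log2. Neither gene was called, against 1.44% of all genes. On the deposited values, without normalization, the difference was 1.20 log2 and Oc90 was called, with the median of all genes shifted to 0.26 log2, which leaves 0.93 log2 relative to it. The trend, the least-squares slope over the stages multiplied by the days they span, was 1.22 log2 over the 4 stages of the vestibular organ (SE 0.22, adjusted p = 0.000113), with 1 of 2 genes called and 4.02% of all genes. The slope of the vestibular organ minus that of the cochlea was -2.08 log2 (SE 0.31, adjusted p = 5.49e-05), with Oc90 called alone of the 2 and 0.813% of all genes called.

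Both of these last results rest on E10.5, the last stage with the short dispase time. Over E11 to E12 alone, expressed over the same number of days, the vestibular trend of Oc90 was 0.58 log2 (adjusted p = 0.216) and the difference of slopes -0.75 log2 (adjusted p = 1.00). The part of the dispase time in these results was not tested.

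In the cochlea Oc90 then approached a plateau. It had 6080.1 and 6435 at E12.5, 7129 and 7008 at E13, 8523 and 7364 at E13.5, 8584 and 7984 at E14, 8313 and 9116 at E14.5, and 8606 and 7274 at E15. From E13.5 to E15 each half-day overlapped the next. Over E10.5 to E15 the cochlear trend was 2.94 log2 (SE 0.16, limma adjusted p = 3.18e-18), and Oc90 and Sparcl1 were both called, against 14.9% of all genes. Over E11 to E15, within the longer dispase time, it was 1.39 log2 and still called.

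In the utricle with its ampullae Oc90 was already near its highest level when the organ was first taken. The signals were 7437 and 7692 at E12.5, 9296 and 8727 at E13, 9590.0 and 8730.3 at E13.5, 9384 and 9913 at E14, 9990.1 and 10110 at E14.5, and 10129 and 10648 at E15. The group mean at E12.5 was 72.8% of that at E15, and the trend of 0.34 log2 did not pass (SE 0.20, limma adjusted p = 0.196). One of the 2 genes, Sparcl1, was called in the utricle trend, against 7.53% of all genes. At E15 Oc90 ranked as high as 11 of 22626 probe sets, at 81.7% of the highest signal on that array. Whether the brightness of this probe set limits the differences seen there was not tested.

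In the saccule the arrays of E12.5 lay below those of the utricle. Oc90 had 3406 and 4373 at E12.5, 3185 and 3526 at E13, 6998 and 4766 at E13.5, 7511 and 6392 at E14, 7157 and 7628 at E14.5, and 7993 and 8612 at E15. The arrays of E12.5 and E13 overlapped and lay below all saccule arrays of later stages. The saccule trend was 1.22 log2 (SE 0.20, limma adjusted p = 4.96e-06), and Oc90 and Sparcl1 were both called, against 7.08% of all genes. At E12.5 the saccule had 0.44 times the mean deposited signal of the undivided vestibular organ at E12, with no overlap. The normalized difference was smaller, at -0.76 log2. The summed signal of 5 red blood cell genes in the saccule was 6467 to 7183 at E12.5 and 1082 to 1236 at E15. In the utricle it was 2943 to 3581 and 599 to 663. The sum of 10 otic epithelium genes was 1680 to 2189 and 2301 to 2674 in the saccule at these stages. In the utricle that sum was 2762 to 3588 and 4676 to 4695. The part of these cells in the Oc90 levels was not tested.

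At each of the 6 shared stages both saccule arrays lay below both utricle arrays, at 0.372 to 0.799 times the mean deposited signal. On the normalized scale the differences at single stages were smaller, from -1.14 to -0.12 log2. The averaged difference was -0.49 log2 (SE 0.09, limma adjusted p = 5.59e-05), under the 1 log2 limit. Neither gene was called in that comparison, against 2.72% of all genes. The utricle arrays lay above the cochlear arrays at all 6 stages with no overlap on the normalized scale, by 0.34 log2 on average (SE 0.09, adjusted p = 0.00543). Here too neither gene was called, against 3.07% of all genes. The saccule differed from the cochlea by -0.15 log2 (SE 0.09, adjusted p = 0.173), with neither gene called and 3.77% of all genes.

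The slopes of Oc90 from E12.5 to E15 were compared as well. The saccule slope minus that of the utricle was 0.89 log2 (SE 0.28, limma adjusted p = 0.0625) and minus that of the cochlea 0.86 log2 (SE 0.28, adjusted p = 0.0369), both under the limit. The utricle slope minus that of the cochlea was -0.031 log2 (SE 0.28, adjusted p = 0.963, 95% interval -0.59 to 0.53). No call was made for Oc90 in these 3 comparisons.

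Oc90 stayed far above the surroundings of the ear. In non-inner ear tissue of E11 to E15 it had 131 and 153, below every inner ear array of those stages. The limma differences over that tissue were 5.04 log2 in the cochlea (SE 0.17, adjusted p = 1.40e-24), 5.25 in the vestibular organ (SE 0.19, adjusted p = 1.35e-23), 5.69 in the utricle (SE 0.18, adjusted p = 8.27e-26) and 5.19 in the saccule (SE 0.18, adjusted p = 8.72e-25). Oc90 was called in all 4, where 14.6% (cochlea), 16.9% (vestibular organ), 15.9% (utricle) and 19.7% (saccule) of all genes were.

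The non-inner ear signal itself was higher in the later pool. Its Oc90 level at E11 to E15 was at least 14.2-fold that at E9.5 to E10.5, where both arrays were at the floor, and this difference was called (limma adjusted p = 3.06e-12), with 1 of 2 genes called and 9.41% of all genes. In the same 2 later arrays Epcam was at the floor of 10, as in the pool of E9.5 to E10.5. Otog, which encodes a protein of the membranes over the sensory epithelia, had 23.8 and 79.1, against 10.9 and 22.4 in that earlier pool. The summed signal of 10 otic epithelium genes was 538 to 603 in the later pool and 537 to 601 in the earlier one. These markers may be too weak to show a small admixture of inner ear tissue. The source of the later Oc90 signal was not tested. Neither gene was called between the non-inner ear pool of E9.5 to E10.5 and that of E9, where 5.62% of all genes were.

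Ordered by normalized group mean, the utricle at E15, E14.5 and E14 had the highest Oc90 levels of the 32 groups. The saccule at E15 and the utricle at E13.5 and E13 followed. The lowest 3 groups were the placode at E9 and non-inner ear tissue at E9 and at E9.5 to E10.5, and the pool of E11 to E15 stood next above them. Of the 31 pairs of neighbours in this order, 20 had overlapping arrays, among them all pairs between the saccule at E14.5 (seventh) and the cochlea at E13.5 (fourteenth).

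Sparcl1 had a different history: it was higher around the ear than in it at early stages and rose late in the inner ear. In the placode at E9 it had 90.8 and 95.5, against 473 and 352 in non-inner ear tissue. The vesicle had 70.1 and 55.8 at E9.5 and 221 and 159 at E10, against 529 and 549 in non-inner ear tissue of E9.5 to E10.5. No inner ear array of these ages reached the non-inner ear arrays.

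The limma difference was -2.35 log2 in the placode (SE 0.19, adjusted p = 3.33e-12), with 1 of 2 genes called and 5.93% of all genes. In the vesicle it was -2.61 log2 (SE 0.16, adjusted p = 4.64e-16), and in the vestibular organ at E11 to E12 -2.05 log2 (SE 0.16, adjusted p = 4.80e-14). At later stages the differences were -0.81 log2 in the cochlea over E11 to E15, -0.70 in the utricle and -0.49 in the saccule over E12.5 to E15 (SE 0.14 to 0.15, limma adjusted p of 8.13e-06, 9.97e-05 and 0.00369), none of which reached 1 log2. The 2 arrays of that late reference had 993 and 609.8. Without the second of them the differences were -1.13 log2 in the cochlea and -1.02 in the utricle, and both were called.

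Markers of vessels moved in the same direction as Sparcl1 against the surroundings. The summed signal of the 8 tested endothelial genes, of 12 listed, was 397 to 1026 in the inner ear arrays, against 1125 to 1441 in non-inner ear tissue. Of these 8 genes, 4 were lower in the placode, 5 in the vesicle and 6 in the cochlea. In the vestibular organ, the utricle and the saccule 5 each were lower. None was higher in any of these tissues. Of all genes, 5.93% were called in the placode, 8.51% in the vesicle and 14.6% in the cochlea. In the vestibular organ, the utricle and the saccule the shares were 16.9, 15.9 and 19.7%. Pecam1, an adhesion protein of endothelium, lay at 10 to 57.4 in the inner ear, against 61.3 to 117 in non-inner ear tissue. Of the 5 tested genes of mural cells, the contractile cells of vessel walls, of 7 listed, none was called in the placode, 4 were lower in the utricle and 3 each in the vesicle, the cochlea, the vestibular organ and the saccule. Their summed signal was 214 to 657 in the inner ear, against 448 to 2368 in non-inner ear tissue.

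Periotic mesenchyme and neurons were lower in the inner ear as well. Of the 10 mesenchyme genes, all tested, 6 were lower in the placode, 8 each in the vesicle and the cochlea, and all 10 in the vestibular organ, the utricle and the saccule, with list medians of -1.15 log2 in the placode to -3.21 in the saccule. Their summed signal was 790.5 to 8927 in the inner ear, against 3625 to 3826 in non-inner ear tissue at E9, 4418 to 5316 at E9.5 to E10.5 and 15643 to 17524 at E11 to E15. Of the 10 neuronal genes, 3 were lower in the placode, 8 in the vesicle, 8 in the cochlea, 6 in the vestibular organ, 7 in the utricle and 8 in the saccule, and 1 was higher in each of the last 4. The part of vessels, mesenchyme and neurons in the Sparcl1 level was not tested.

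Within the inner ear Sparcl1 rose by 1.30 log2 from E9.5 to E10 (SE 0.19, limma adjusted p = 1.74e-05; 0.90 log2 and not called with a pseudocount of 64, and adjusted p = 0.378 with only these 4 arrays), after a difference of -0.44 log2 between E9.5 and the placode that did not pass (SE 0.19, adjusted p = 0.254). Through E12 it then stayed within a narrow range. The vestibular organ had 157 and 184 at E10.5, 235 and 249 at E11, 247 and 228 at E11.5, and 209.7 and 225 at E12. The cochlea had 162 and 173 at E10.5, 216 and 237 at E11, 123 and 141 at E11.5, and 132 and 119 at E12. Both organs thus stayed between 119 and 249. Within that range the cochlear arrays of E11.5 lay below those of E11 with no overlap (-0.70 log2).

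No comparison of the 2 organs was called for Sparcl1. On the normalized scale both vestibular arrays lay above both cochlear arrays at E11.5 (0.50 log2) and E12 (0.41). At E11 the arrays overlapped, and at E10.5 the vestibular arrays lay below. At E10.5 the vestibular organ minus the cochlea was -0.29 log2 (SE 0.19, limma adjusted p = 0.381, 95% interval -0.68 to 0.09), but 0.021 on the deposited values, where the median of all genes was 0.31. Over E11 to E12 it was 0.30 log2 (SE 0.11, adjusted p = 0.0575). The vestibular trend of 0.16 log2 did not pass (SE 0.18, adjusted p = 0.598, and -0.49 log2 over E11 to E12 alone), and its difference from the cochlear slope was 0.79 log2 (SE 0.25, adjusted p = 0.187).

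From E12.5 Sparcl1 climbed steeply in all 3 organs. The cochlea had 356 and 291 at E12.5, 380.2 and 377 at E13, 594 and 489 at E13.5, 1348 and 1221 at E14, 1505 and 1449.7 at E14.5, and 3108 and 2933 at E15. The utricle had 189.9 and 106 at E12.5, 175 and 172 at E13, 313 and 305 at E13.5, 1099 and 999 at E14, 1036 and 972 at E14.5, and 4730.1 and 3493 at E15. The saccule had 256 and 207 at E12.5, 240.1 and 274 at E13, 380.5 and 326 at E13.5, 840.2 and 963 at E14, 1135 and 1080.4 at E14.5, and 3032 and 3041 at E15. In each organ the arrays of E14 lay above those of E13.5, and the arrays of E15 above those of E14.5, with no overlap.

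The steps between half-days were uneven. Between E12 and E12.5 the mean signal of the cochlea was multiplied by 2.58, and between E13 and E13.5 that of the utricle by 1.78, both with no overlap. Between E13.5 and E14 the mean signal was multiplied by 3.39 in the utricle, 2.55 in the saccule and 2.37 in the cochlea. Between E14.5 and E15 it was multiplied by 4.10, 2.74 and 2.04 in these organs. Between E14 and E14.5 the ratio was only 0.96, 1.23 and 1.15. Relative to the mean of the stages on either side, the E14 groups stood 0.57 to 1.08 log2 higher for Sparcl1 and between -0.01 and 0.04 log2 for Oc90. Some other genes also stood apart at E14. In the cochlea, the utricle and the saccule the E14 means of Cntln were 10.48, 10.71 and 10.55 log2. They lay above those of E13.5 and of E14.5 (10.14, 10.16 and 10.19). Those of the cell division gene Birc5 were 8.78, 8.11 and 8.51 log2, below E13.5 (9.79, 9.73 and 9.73) and E14.5 (9.27, 9.06 and 8.95). Both genes were picked after their values were seen, and the cause was not tested.

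The limma trends of Sparcl1 were 4.58 log2 in the utricle (SE 0.16, adjusted p = 1.87e-23), 3.75 in the saccule (SE 0.16, adjusted p = 6.50e-21) and 4.07 in the cochlea over its longer span from E10.5 (SE 0.13, adjusted p = 1.16e-25). By absolute size they ranked 8 and 17 of 9352 genes in the utricle and the saccule. The trends stayed called without the E14 arrays and without the E15 arrays, and the slopes without E15, expressed over the same number of days, were 3.92, 3.16 and 3.66 log2 in the utricle, the saccule and the cochlea.

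The order of the organs changed at E15. On the normalized scale the utricle lay below the cochlea at each of the 5 stages from E12.5 to E14.5, without overlap, and above it at E15, at 1.36 times its mean signal. The slope of the utricle minus that of the cochlea was 1.40 log2 (SE 0.23, limma adjusted p = 4.56e-05), with Sparcl1 called alone of the 2 genes and 3.86% of all genes called. Without the E15 arrays it was 0.87 log2 (adjusted p = 0.144) and not called.

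The saccule also lay below the cochlea at the same 5 stages. Its slope minus that of the cochlea was 0.57 log2 (SE 0.23, limma adjusted p = 0.103), with neither gene called and 5.04% of all genes. Its slope minus that of the utricle was -0.83 log2 (SE 0.23, adjusted p = 0.0280), with neither gene called and 2.11% of all genes. Without the first utricle array of E12.5, whose pair was the most uneven for Sparcl1 (SD 0.53 log2), that last difference was -1.10 log2 and called. Averaged over E12.5 to E15, the difference of Sparcl1 from the cochlea was -0.66 log2 in the utricle (SE 0.08, adjusted p = 4.87e-09) and -0.46 log2 in the saccule (SE 0.08, adjusted p = 5.26e-06), and the saccule minus the utricle was 0.21 log2 (SE 0.08, adjusted p = 0.0302). All 3 averages were under 1 log2.

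In the order of the 32 groups by normalized mean, the 3 organs at E15 had the highest Sparcl1 levels: the utricle, then the saccule, then the cochlea, with no overlap between neighbours. The cochlea at E14.5 and E14 came next, and these overlapped. The placode and the vesicle at E9.5 were the lowest 2 groups, and the 3 groups of non-inner ear tissue stood at places 10, 11 and 13. Overlap was found in 16 of the 31 neighbouring pairs.

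**Figure D2:**
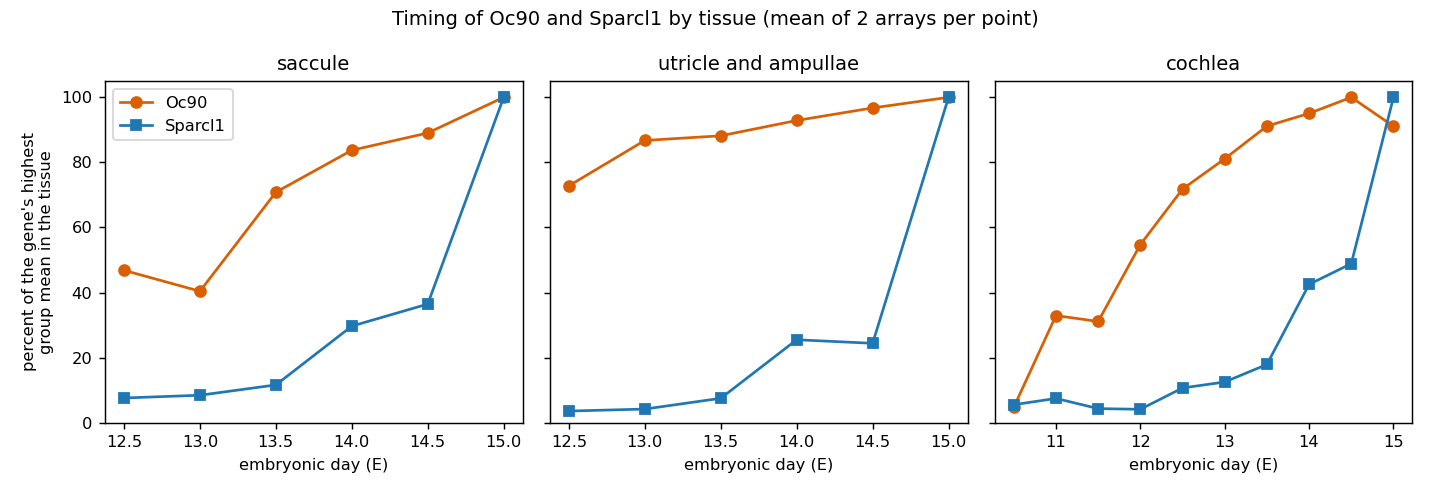
Mean deposited signal of Oc90 and Sparcl1 (2 arrays per point) as a percentage of the gene's own highest group mean in that organ, against embryonic day, in the saccule, the utricle with ampullae and the cochlea. At E13.5 Oc90 stands at 70.8, 88.2 and 91.2% of its maximum in these 3 organs, while Sparcl1 stands at 11.6, 7.53 and 17.9%.

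The 2 genes thus reached their levels at different times in the same organs. In the cochlea Oc90 was at 4.78% of its highest group mean at E10.5 and at 54.8% by E12, when Sparcl1 was at 4.14%. These percentages are of deposited signals, without normalization. Between E12 and E12.5 the deposited mean of Oc90 in the cochlea was multiplied by 1.31. Its normalized step was only 0.068 log2, with overlapping arrays. At E14.5 Oc90 stood at 89.0% in the saccule, 96.7% in the utricle and 100% in the cochlea. At that stage Sparcl1 stood at 36.5, 24.4 and 48.9%. Over the 29 inner ear groups their normalized means correlated at a Pearson r of 0.57 and a Spearman coefficient of 0.68. Within the utricle and within the saccule, over 6 stages each, r was 0.90 in both and the Spearman coefficient 0.94 in both. Within the cochlea, over 10 stages, r was 0.54 and the Spearman coefficient 0.88. These points share their arrays and a common rise with age, so the values are a description.

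**Figure D3:**
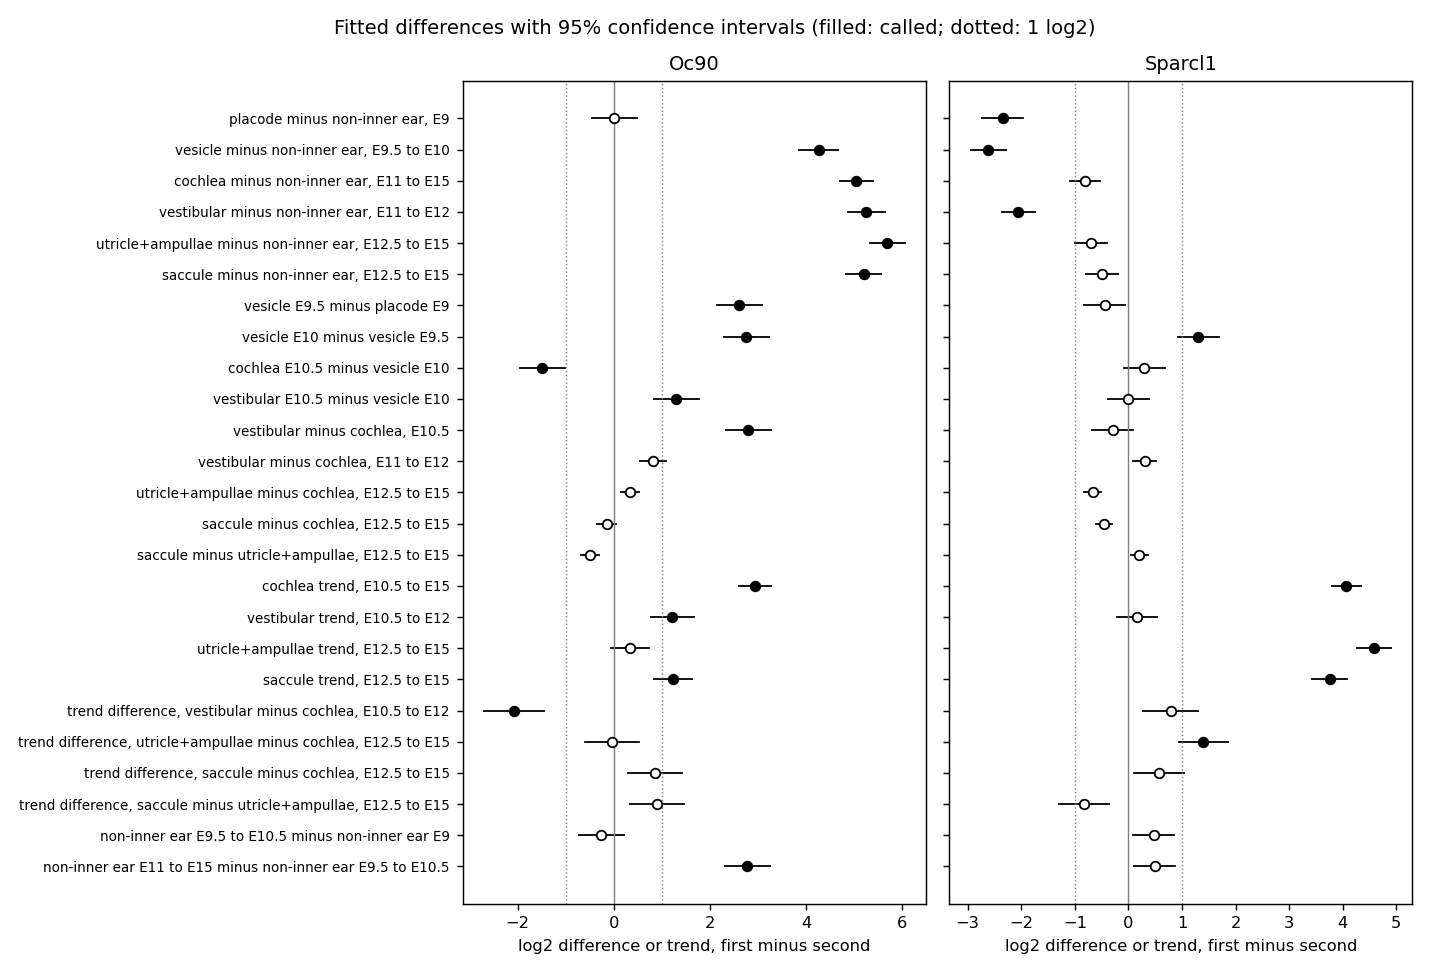
Fitted log2 differences and trends (points) with 95% confidence intervals (lines) for Oc90 (left) and Sparcl1 (right) in the 25 comparisons, each written as first minus second; filled points were called and dotted lines mark 1 log2. Oc90 is called above non-inner ear tissue in 5 of 6 comparisons and Sparcl1 below it in 3, and Sparcl1 has called trends in the cochlea, the utricle and the saccule.

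Other cell types changed over the same stages. S100b, a calcium-binding protein best known from glia, rose with age in all 3 organs. Its signals in the saccule were 2258 and 2302 at E15, against 64.8 and 109.9 at E12.5. In the utricle they were 973 and 1341 at E15, against 93.0 and 100.01 at E12.5, and in the cochlea 224 and 444, against 26.2 and 46.6. S100b was called in the trends of the saccule (4.70 log2), the utricle (3.10) and the cochlea (2.91). Of the 4 tested glial genes, of 8 listed, it was the only one called in each of these 3 trends. At E15 the summed glial signal was 4660 to 4740 in the saccule and 1853 to 2045 in the utricle. In the cochlea it was 796 to 1336.

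Hair cell genes rose too, 8 of 9 in the saccule trend and 7 of 9 in the utricle trend. In the cochlea 3 rose and 2 fell. Of all genes, 7.08, 7.53 and 14.9% were called in these 3 trends in either direction. Of the 8 endothelial genes, 1 rose in the utricle trend, Kdr, a receptor for vascular growth factor, which had 531 and 553 at E15, against 174 and 220.1 at E12.5. In the saccule and in the cochlea 1 endothelial gene fell and none rose. A count of 1 in 8 is near the shares of all genes. The summed endothelial signal in the utricle was 999 to 1026 at E15, against 605 to 640 at E14.5. In the saccule it was 598 to 755, against 508 to 534, and in the cochlea 502 to 517, against 468 to 513. Over that step Sparcl1 was multiplied by 4.10, 2.74 and 2.04 in these organs. Of the 5 mural cell genes, 1 rose in the cochlea, 1 in the utricle and none in the saccule. Of the 10 mesenchyme genes, 2 rose and 3 fell in the cochlea, 1 rose and 1 fell in the utricle, and 2 fell in the saccule. Their summed signal in the cochlea was 8598 and 8927 at E15, against 4844 and 5355 at E14.5. In that half-day Sparcl1 was multiplied by 2.04 there. At E14 the sum in the cochlea was 3857 to 4071.5, against 3782 to 4154 at E13.5. In the utricle it was 1793 to 2520, against 3045 to 3187, and in the saccule 2079 to 2201, against 3111 to 3806. Between E13.5 and E14 Sparcl1 was multiplied by 2.37, 3.39 and 2.55 in these organs. The part of these cells in the Sparcl1 trend was not tested.

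Other genes of otoconia and of the membranes beside them were followed from lists. Of the mineral matrix list, 3 of 9 genes were tested: Sparc, a collagen- and calcium-binding matrix protein, Mgp, an inhibitor of calcification, and Mepe, a bone matrix protein. Sparc rose in the cochlea (trend 2.48 log2, SE 0.13, limma adjusted p = 1.42e-18), the saccule (1.78, SE 0.16, adjusted p = 1.90e-11) and the vestibular organ (1.05, SE 0.18, adjusted p = 5.61e-05). In the utricle its trend was 0.76 log2, under the limit. Mgp and Mepe were not called in these trends. The list medians were 0.32 log2 in the cochlea, 0.37 in the saccule, 0.09 in the utricle and 0.40 in the vestibular organ, against all-gene medians between -0.02 and 0.06.

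Sparc was called in early comparisons as well. It lay at 102 and 118 in the vesicle at E9.5 and at 672 and 949.7 at E10, a rise of 2.62 log2 (SE 0.19, limma adjusted p = 2.02e-12). At E10.5 it was 1.26 log2 higher in the vestibular organ than in the cochlea (SE 0.19, adjusted p = 1.43e-05). Against non-inner ear tissue Sparc was lower, with differences of -2.59 log2 in the placode (SE 0.19, adjusted p = 2.34e-13) and -1.84 log2 in the vesicle (SE 0.17, adjusted p = 1.22e-11).

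**Figure D4:**
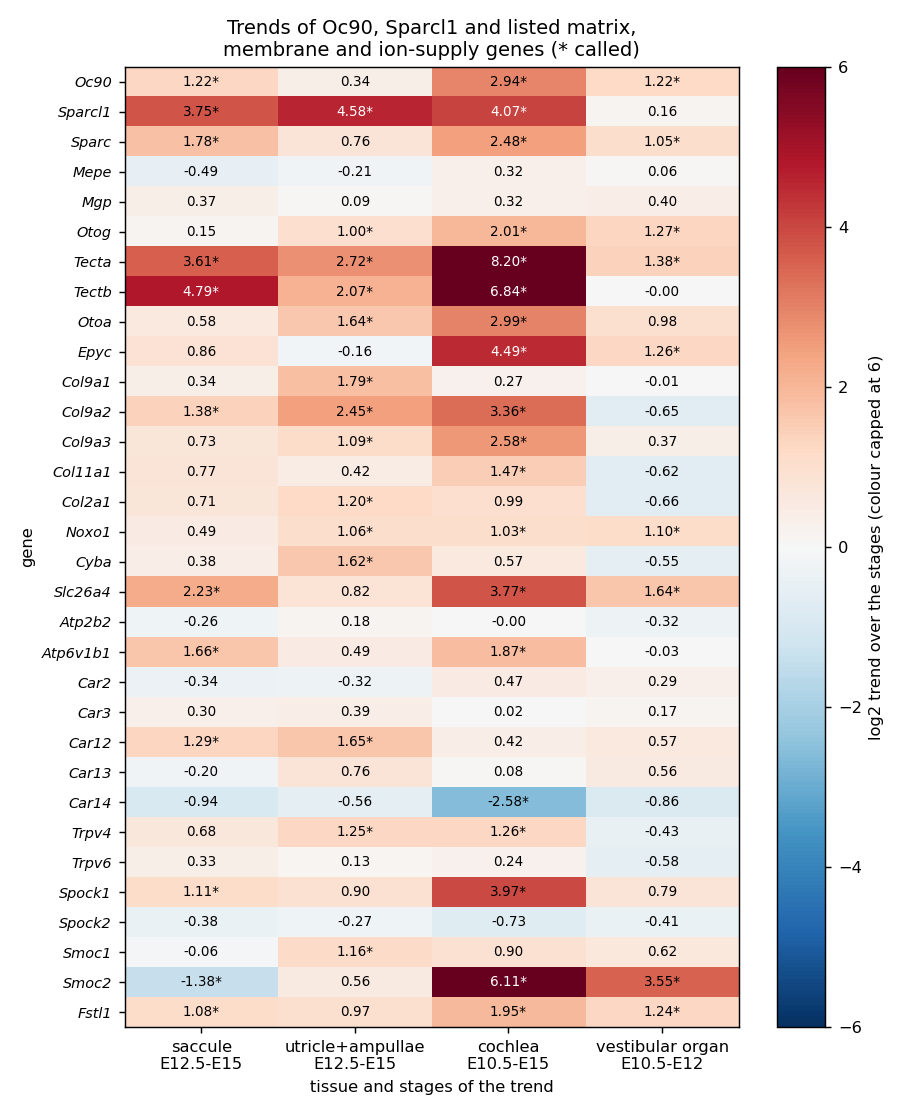
Log2 trends of Oc90, Sparcl1 and the tested genes of the mineral matrix, ear membrane, ion supply and SPARC family lists (rows) in the saccule, the utricle with ampullae, the cochlea and the vestibular organ (columns, with the stages spanned); asterisks mark called trends and the colour is capped at 6. Sparcl1 has trends of 3.75, 4.58 and 4.07 in the first 3 columns and 0.16 in the vestibular organ, where Oc90 has 1.22.

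The ear membrane list, the proteins of the tectorial and otoconial membranes and of their collagens, had 10 of 12 genes tested. In the cochlea 8 rose and none fell, led by the tectorins Tecta (8.20 log2) and Tectb (6.84), with the small proteoglycan Epyc (4.49) and the collagen Col9a2 (3.36). In the utricle 8 rose, among them Tecta (2.72), Col9a2 (2.45), Tectb (2.07) and Col9a1 (1.79). In the saccule 3 rose, Tectb (4.79), Tecta (3.61) and Col9a2 (1.38), and 5 genes were called without the E15 arrays. The list medians were 2.79, 1.42 and 0.75 log2 in the cochlea, the utricle and the saccule, against all-gene medians of 0.06, 0.00 and -0.02. Of all genes, 14.9, 7.53 and 7.08% were called in these trends.

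Between organs, Tectb (-3.21 log2) and Tecta (-2.43) were lower in the utricle than in the cochlea. Otoa, which anchors membranes to the epithelium, was 3.47 log2 higher in the saccule than in the utricle. Otog was already 3.39 log2 higher in the placode than in non-inner ear tissue at E9, the stage at which Oc90 was not called.

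The ion supply list, for calcium, bicarbonate and the oxidase needed for otoconia, had 12 of 19 genes tested. In the cochlea 4 rose, Slc26a4 (the anion exchanger pendrin, 3.77 log2), Atp6v1b1 (a proton pump subunit, 1.87), and Trpv4 (a calcium-permeable channel, 1.26) among them, and the carbonic anhydrase Car14 fell by 2.58 log2. In the saccule 3 rose, Slc26a4 (2.23), Atp6v1b1 (1.66) and the carbonic anhydrase Car12 (1.29). In the utricle 4 rose, Car12 (1.65), Cyba (an oxidase subunit, 1.62), Trpv4 (1.25) and Noxo1 (an organizer of the oxidase, 1.06). The list medians were 0.45, 0.35 and 0.63 log2 in the cochlea, the saccule and the utricle, against all-gene medians of 0.06, -0.02 and 0.00. Of all genes, 14.9, 7.08 and 7.53% were called in these trends.

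Of the SPARC family, to which Sparcl1 belongs, 6 of the 7 other listed genes were tested. In the cochlea 4 rose, Smoc2 (6.11 log2), Spock1 (3.97), Sparc and the secreted follistatin relative Fstl1 (1.95), and the list median was 2.21 log2. In the utricle Smoc1 alone rose (1.16), with a median of 0.83. In the saccule Sparc, Spock1 (1.11) and Fstl1 (1.08) rose and Smoc2 fell by 1.38 log2, with a median of 0.51, and 1 gene of the family was called there without the E15 arrays. Of the secreted phospholipase A2 family, to which the domains of otoconin-90 are related, 8 of 11 genes were tested. Pla2g5 alone of the 8 rose in the cochlea (1.68 log2), where 14.9% of all genes were called. None was called in the trends of the utricle or the saccule, where 7.53 and 7.08% of all genes were. The medians of this family were 0.21 log2 in the cochlea, -0.40 in the utricle and -0.12 in the saccule, against the same all-gene medians.

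The genes whose normalized means were most like those of each member over the 29 inner ear groups were named by their Pearson r. For Oc90 these were Cntln (0.95), Sparc (0.95), Zcchc18 (0.95), Dnmt3a, a DNA methyltransferase (0.95), and Oxct1, an enzyme of ketone body use (0.94), and 32 genes had r above 0.9. Those most unlike Oc90 were Imp4 (-0.94), Snx5 (-0.92) and the glucose transporter Slc2a3 (-0.90). For Sparcl1 the most alike were Cpxm2 (0.94), Cryab, a small heat shock protein (0.91), the hexokinase Hk1 (0.91), the Wnt receptor Fzd9 (0.91) and Slc44a3 (0.91), and 9 genes had r above 0.9. Most unlike Sparcl1 were Trim59 (-0.94) and the cell division genes Birc5 (-0.92) and Kif2c (-0.92). The groups share arrays and age, so these values are a description with no test.

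These genes were picked on the same arrays that give the trends, so their trends follow from the choice and are given as values only. For Cpxm2 they were 4.02 log2 in the utricle and 4.07 in the saccule. For Cryab they were 4.01 log2 in the utricle, 4.32 in the saccule and 7.49 in the cochlea.

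In RefSeq's mouse gene order (GRCm38.p6), Sparcl1 is followed by Dspp, Dmp1, Ibsp, Mepe and Spp1, a row of genes for matrix proteins of bone and teeth. These neighbours were chosen for their position after the values of Sparcl1 were known. Dspp, Dmp1 and Ibsp did not pass the filter on low values: Dspp was at the floor in 33 of 64 arrays and reached at most 88.3 in the inner ear, Dmp1 at most 25.2, and Ibsp at most 27.98 in either of its 2 probe sets. Mepe was detected in every inner ear array, between 293 and 1373, and its trends were 0.32 log2 in the cochlea, -0.21 in the utricle and -0.49 in the saccule, none of them called. On the other side of Sparcl1, Hsd17b11, a hydroxysteroid dehydrogenase, was called in several of the comparisons in which Sparcl1 was, and in the same direction. Its differences were -1.36 log2 in the placode and -1.05 in the vesicle, both minus non-inner ear tissue, and 1.78 from E9.5 to E10, with trends of 2.00 in the cochlea and 1.12 in the utricle. It was not called in the saccule trend, nor in the vestibular organ minus non-inner ear tissue (-0.49 log2), where Sparcl1 was. Its utricle slope minus that of the cochlea was -0.57 log2 and not called, against 1.40 for Sparcl1. Hsd17b11 was also called where Sparcl1 was not. Its level was 1.28 log2 higher in non-inner ear tissue of E9.5 to E10.5 than of E9, and 1.17 higher again at E11 to E15. Its saccule slope minus that of the cochlea was -1.18 log2, against 0.57 for Sparcl1. There 5.62, 9.41 and 5.04% of all genes were called. Of all genes, 5.93, 8.51 and 2.01% were called in the placode, the vesicle and the step to E10. In the cochlea and utricle trends 14.9 and 7.53% were. Nudt9 and Hsd17b13, on the same side of Sparcl1, were called in no comparison. Of the genes beside Oc90, Efr3a, a membrane-anchored scaffold protein, rose in the saccule (1.34 log2, SE 0.20, limma adjusted p = 1.87e-06) and was not called in the cochlea, vestibular organ or utricle trends. Phf20l1, on the other side of Oc90, was called above non-inner ear tissue in the later organs, as Oc90 was. Its differences were 1.38 log2 in the cochlea, 1.27 in the vestibular organ, 1.31 in the utricle and 1.35 in the saccule. Of all genes, 14.6, 16.9, 15.9 and 19.7% were called there. In the vesicle Phf20l1 was not called (0.028 log2). Cyrib was called in the placode (1.02 log2), where Oc90 was not and 5.93% of all genes were.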

How the data were processed

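RNA of 64 tissue pools was hybridised as labelled cRNA to 1 Affymetrix array each. The authors deposited 1 linear intensity per probe set and array, made with MAS5 according to the labels' tool list and per the submitters' processing notes, with a floor of 10. For MAS5, neither version nor scaling target is given in the sources used here. Of 22626 probe sets, 20380 have 1 gene symbol in the platform annotation, 691 several and 1555 none.

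The arrays were quantile normalized and transformed as log2(signal + 16). Probe sets at or above the array median on at least 2 arrays were kept (15337), and of several kept probe sets of a gene the one with the highest mean stood for it, giving 9352 genes. Both Oc90 and Sparcl1 passed. A model with 1 coefficient for each of 32 groups was fitted with limma 3.58.1 in R 4.3.3 (32 residual degrees of freedom, moderated variances following the mean), with two-sided p-values adjusted by the Benjamini-Hochberg method. The fit was tested on simulated data. Where Oc90 was at the floor on both arrays of a group, a fold is the smaller of the ratios of geometric means to that floor on the deposited and on the normalized scale, given as a lower bound. The number of arrays limits the precision, and 2 per group do not show the full spread between litters.

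Named genes are Oc90 and Sparcl1, the 5 genes most like and the 3 least like each, up to 4 genes with the largest change of each list in a comparison, and Otx2, Gata3 and Pax2 (Pax2 had no usable probe set). Other cell type markers and neighbouring genes were named after their values were seen. The genes and lists were chosen with earlier results of these data known. List genes with no probe set of 1 symbol, such as Otol1, Otop1, Otogl and Spp1, were not analysed here. Alternatives were pseudocounts of 1 and 64, other scalings and filters, each probe set tested separately, weighted arrays, fits to the compared groups, a replicate block, leaving out arrays or stages, and 1 dispase time. The fits without E15 and over E11 to E12 were added after seeing the data.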

Additional observations from a re-analysis of the deposited data

Results flagged for a closer look

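The Oc90 slope from E10.5 to E12 differed between the vestibular organ and the cochlea, by -2.08 log2 in a test of the difference itself (vestibular minus cochlea, limma adjusted p = 5.49e-05). Both arrays of the cochlea at E10.5 lay below all other inner ear arrays of that stage and later. The Sparcl1 slope from E12.5 to E15 differed between the utricle and the cochlea, by 1.40 log2 (utricle minus cochlea, limma adjusted p = 4.56e-05). The 2 utricle arrays at E15 lay above the 2 cochlear arrays of E15, and at the 5 earlier stages the utricle lay below.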

How the results depend on the processing

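Over the alternative settings, 536 values of the genes and comparisons kept their direction and side of the threshold, 10 lost their call, 1 gained it and 7 changed sign. With a pseudocount of 64 the Sparcl1 step from E9.5 to E10 was 0.90 log2. On the deposited values Sparcl1 changed sign for the cochlea at E10.5 minus the vesicle (-0.15), the vestibular organ at E10.5 minus the vesicle (-0.13) and the vestibular organ minus the cochlea at E10.5 (0.021), as did Oc90 for the slope of the utricle minus the cochlea (0.025), and Oc90 gained a call for the vestibular organ minus the cochlea at E11 to E12 (1.20). With a common trimmed mean, Oc90 was -0.020 for the placode minus non-inner ear tissue and Sparcl1 -0.039 for the vestibular organ at E10.5 minus the vesicle. With only the groups compared, calls were lost for Oc90 at E9.5 minus placode (2.61), E10 minus E9.5 (2.76, and 1.30 for Sparcl1), cochlea E10.5 minus vesicle (-1.49), vestibular E10.5 minus vesicle (1.30) and vestibular minus cochlea at E10.5 (2.79). In fits chosen after seeing the data, E11 to E12 alone gave vestibular trends of 0.58 (Oc90) and -0.49 (Sparcl1) and an Oc90 slope difference of -0.75, and without E15 the Sparcl1 slope of the utricle minus the cochlea was 0.87. The cause was not tested.

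Leaving out each array in turn, the ranges of the results that changed sign or call were as follows. Oc90 spanned -0.26 to 0.27 for the placode minus non-inner ear tissue, -2.01 to -0.98 for the cochlea at E10.5 minus the vesicle, 1.24 to 1.36 for the vestibular organ at E10.5 minus the vesicle, and -0.088 to 0.026 for the slope of the utricle minus the cochlea. Sparcl1 spanned -0.15 to 0.15 for the vestibular organ at E10.5 minus the vesicle, -1.13 to -0.49 for the cochlea and -1.02 to -0.38 for the utricle minus non-inner ear tissue, and -1.10 to -0.56 for the slope of the saccule minus the utricle. A group left with 1 array was assumed to vary like the others.

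The labels do not say that equal replicate numbers mark shared litters. Of 23 same-stage pairs of groups, 19 correlated above 0.1 in their deviations (median 0.27, range -0.50 to 0.57), against 90 of 473 different-stage pairs (median -0.0055). Pools held the same numbers of tissues at both replicate numbers in 12 of 22 same-stage inner ear pairs. These are hints of pairing, but not every pair met the threshold. With the replicate block within stage no call of Oc90 or Sparcl1 changed (slope differences -2.08 and 1.40), and over all genes the calls were 37, against 18, for the vestibular organ at E10.5 minus the vesicle and 119, against 76, for the slope difference at E10.5 to E12.

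Counts over all genes moved by over 1.5 times elsewhere too. On the deposited values 987 genes, against 555, were called for the placode minus non-inner ear tissue, 556, against 218, for the cochlea at E10.5 minus the vesicle, 536, against 232, and 210, against 135, for the vestibular organ minus the cochlea at E10.5 and at E11 to E12. There the share of higher calls was 87.4%, against 45.6%, for the placode, 78.4%, against 39.2%, for the vesicle minus non-inner ear tissue, and 6.29%, against 54.1%, for the cochlea at E10.5 minus the vesicle, and it moved by over 10 points in other comparisons too. Array weights gave 31 (against 69), 42 (188), 130 (218), 11 (18) and 121 (76) calls in the 4 steps from E9 to E10.5 and the early slope difference. With limma fits to the compared groups alone 0 genes were called in those 4 steps, with 478, 763, 988 and 610 genes at an unadjusted p below 0.05. Those fits gave 4 calls, against 232, for the vestibular organ minus the cochlea at E10.5, 116, against 76, for the early slope difference and 121, against 197, for the slope of the saccule minus the utricle. A pseudocount of 64 gave fewer calls in 20 comparisons, E11 to E12 alone 803, against 376, and 17, against 76, and the late slope differences without E15 193, against 361, and 208, against 471. Signal at the floor and 2 arrays per group limit what can be seen.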

Other observations

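Genes of red blood cells, 5 tested of 7, moved unevenly over the late stages. In the saccule trend 3 fell, led by Hbb-y, an embryonic globin (-6.01 log2), and 1 rose, Slc4a1, an anion exchanger (1.40). In the utricle trend 2 fell, Hbb-y (-5.87 log2) and Hba-x (-1.31). Of the 10 neuronal genes, 2 rose and 3 fell in both the utricle and the saccule trends. Their summed signal in the utricle was 6613 to 6707 at E15, against 2760 to 4095 at E12.5, and in the saccule 6341 to 7011, against 2770 to 4326. In the cochlea 1 rose and 7 fell, and in the vestibular organ 1 rose and 4 fell. Neurod1, a transcription factor of ganglion neuroblasts, was among those that fell in all 4. Of all genes, 7.53% were called in the utricle trend and 7.08% in the saccule trend. In the cochlea and the vestibular organ the shares were 14.9 and 4.02%. In the utricle trend, where Oc90 was not called, the hair cell genes Smpx (5.42 log2) and Gfi1 (4.65) rose. These genes were chosen after their values were seen, and their part in the levels of Oc90 and Sparcl1 was not tested.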
